A study of Mus musculus with 13 samples.

Results

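The EGF family ligands and receptors were followed in the endometrium of ovariectomized mice given estradiol, a high-fat diet or both. The set was defined as 10 genes: the ligands Areg, Ereg, Hbegf, Tgfa, Egf and Btc, the receptors Egfr, Erbb2 and Erbb3, and the receptor inhibitor Errfi1. A gene was taken from the value table through the array features whose only symbol in the array annotation was that gene, and where a gene had more than 1 feature, the brightest on average stood for it. By this rule 9 of the 10 genes had a feature among the 65929 on the array. No value is given for Areg.

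All 13 mice were female C57BL/6 animals whose ovaries had been removed on both sides at an age of 6 to 8 weeks, and the treatments lasted 12 weeks. The groups were MIX (high-fat diet and a subcutaneous pellet that releases 17-β estradiol, n = 3), E2 (the pellet on chow, n = 4), HD (the high-fat diet without a pellet, n = 3) and CON (chow without a pellet, n = 3). The CON mice thus lacked ovarian hormones as well. Neither the dose of the pellet nor the make-up of the diet was given. The tissue was scraped from the opened uterus, and each mouse gave 1 array. Values are log2 expression as deposited, so a difference of 1 is a doubling. A group is summarised by its mean ± SD.

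The ligands of this family are made as membrane-bound precursors and are released by proteases. They bind the receptor tyrosine kinase encoded by Egfr, which pairs with itself or with the other ERBB receptors and signals through the MAP kinase and PI3-kinase routes. The product of Erbb2 binds no known ligand and acts as a partner, and that of Erbb3 has little kinase activity of its own and signals in pairs, above all with ERBB2. In the rodent uterus, EGF-type ligands are known as mediators of estradiol-driven growth of the epithelium, and the HBEGF and amphiregulin proteins are known for their part at embryo implantation.

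Epithelial markers were high in the scraped tissue, although they do not tell endometrium from other epithelia. All 8 epithelial markers had a feature, and their mean lay between 9.96 and 10.36 in MIX, 9.95 and 10.1 in E2, 9.996 and 10.24 in HD, and 10.02 and 10.14 in CON, against array medians of 4.48 to 4.71. Some mice stood apart in other cell types. The mean of 7 granulocyte markers was 9.68 in MIX replicate 3, against 4.84 to 8.25 in the other mice, and that of 6 endothelial markers was 7.99 in MIX replicate 2, against 4.94 to 6.22 in the other mice. In CON replicate 3 the mean of 6 adipocyte markers was 5.12, against 4.48 to 4.79 in the other mice, a level near the array medians. Its mean of 7 stroma markers was the lowest, 8.57 against 8.77 to 10.18 in the other mice. The titles carry numbered or lettered animal codes of unknown meaning, and all 3 MIX mice have lettered codes, as has 1 mouse of each other group. Differences given with a standard error (SE) come from a limma fit over all features with the code style as a term, unless stated otherwise. That term makes differences from MIX depart from the plain differences of group means.

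No member passed the threshold, an adjusted p under 0.05 over all features in limma, in any of 8 comparisons. The shares of all features that passed were 0.00303% for MIX against CON, 0.00455% for MIX against HD, 0.0167% for pellet against none averaged over both diets, and 0% for the other 5. At an unadjusted p under 0.05 the pellet comparison averaged over diets had 1 of 9 members, Erbb2, where 9.99% of all features were found, so the members' share lay near the background. The comparisons of E2 with CON (4.02% of features), MIX with CON (8.34%) and MIX with HD (7.05%) each had 1 member, again Erbb2. The comparisons of HD with CON (2.91%) and MIX with E2 (2.78%), the averaged diet difference (3.36%) and the interaction (2.1%) had 0 members at an unadjusted p under 0.05 in limma. The median difference of the 9 members was -0.08 for the averaged pellet comparison and -0.02 for the averaged diet comparison. Over the 30142 genes with a feature these medians were -0.01 and -0.00047.

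**Figure D1:**
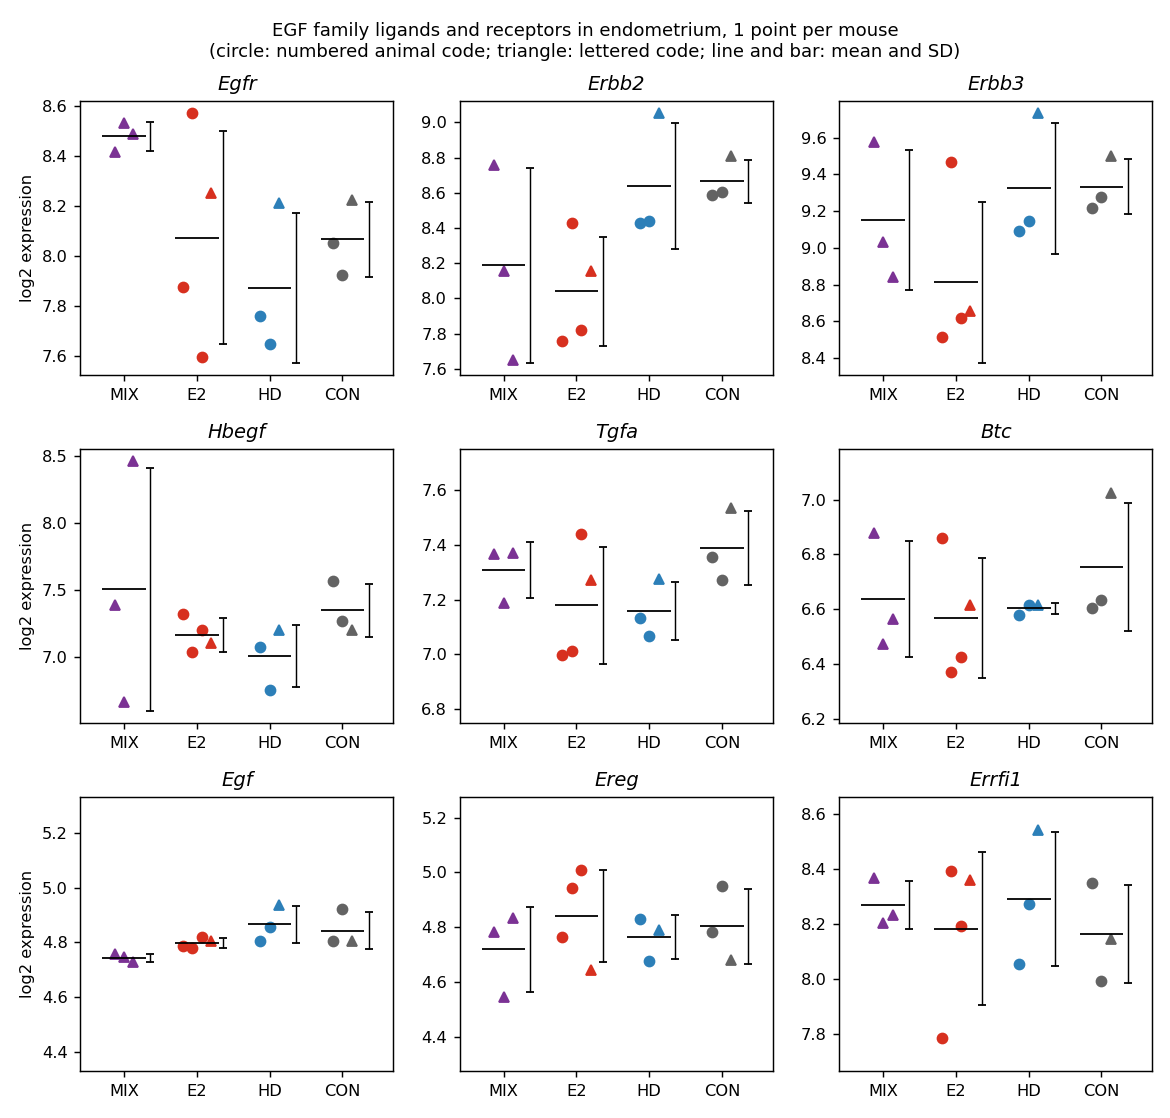
Log2 expression of the 9 measured genes in every mouse, with the groups MIX, E2, HD and CON from left to right. Circles are mice with numbered and triangles with lettered codes, lines are group means and bars 1 SD. Most points of a gene overlap between groups, the 4 E2 mice lie below the 3 CON mice for Erbb2, and the 3 MIX mice lie above the HD and CON mice for Egfr.

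Among the receptors, Erbb2 had the largest difference of the 9 members between pellet and no pellet. Its log2 expression was 8.76, 8.15 and 7.65 in the MIX mice and 7.76, 8.43, 7.82 and 8.15 in the E2 mice, against 8.43, 8.44 and 9.05 in the HD mice and 8.59, 8.61 and 8.81 in the CON mice. The means were 8.19 ± 0.55 in MIX, 8.04 ± 0.31 in E2, 8.64 ± 0.36 in HD and 8.67 ± 0.12 in CON. All 4 E2 mice lay below all 3 CON mice, which 2.6% of all features showed in that direction, whereas MIX replicate 1 lay among the mice without a pellet and E2 replicate 2 was level with the lowest HD mouse. The pellet difference averaged over diets was -0.63 (SE 0.19, 95% confidence interval -1.05 to -0.22), or 0.646-fold. It did not pass in limma (adjusted p = 0.346, unadjusted p = 0.0068). An exact permutation test of the plain difference, -0.54, with mice relabelled within each diet (700 relabelings, two-sided) gave an unadjusted p = 0.0257, and 6 of 7 pellet mice lay below the mean of the mice without a pellet on their diet. That p was 0.0571 without MIX replicate 2, 0.0743 without MIX replicate 3, 0.0771 without HD replicate 3 and 0.0533 without CON replicate 3.

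By diet, the Erbb2 difference was -0.60 (SE 0.24) for E2 against CON and -0.66 (SE 0.29) for MIX against HD, with an interaction of -0.06 (SE 0.39). Leaving out 1 mouse moved the difference between MIX and HD to -0.40 without MIX replicate 3 and to -0.95 without MIX replicate 1, and the interaction ran from -0.35 to 0.20, so no sign is read from it. On the high-fat diet the plain difference of means was -0.45. The diet itself gave -0.03 without a pellet (95% confidence interval -0.60 to 0.54) and -0.09 with one (-0.74 to 0.55), so differences of either sign up to those bounds were not excluded. The code style term put lettered mice 0.32 above numbered ones for Erbb2 (unadjusted p = 0.171).

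Erbb3 was at 9.57, 9.03 and 8.84 in MIX and 8.51, 9.46, 8.62 and 8.66 in E2, against 9.09, 9.15 and 9.73 in HD and 9.22, 9.28 and 9.50 in CON. Of the 7 pellet mice, 5 lay below the mean of their counterparts on the same diet, and E2 replicate 2 and MIX replicate 1 lay with the mice without a pellet. The averaged pellet difference was -0.41 (SE 0.20, adjusted p = 0.527 in limma; exact permutation p = 0.111 for the plain difference of -0.35). Without HD replicate 3 it was -0.25. Between E2 and CON the difference was -0.50 (SE 0.25), with -0.32 without E2 replicate 4 and -0.74 without E2 replicate 2. Between MIX and HD it was -0.31 (SE 0.31), and single mice decided that value: it was 0.02 without HD replicate 3 and -0.52 without MIX replicate 1.

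Erbb2 and Erbb3 followed each other from mouse to mouse. Over the 13 mice Pearson's r was 0.907 (permutation p = 5e-05, adjusted p = 0.00225) and Spearman's rho 0.908 (permutation p = 7e-05, adjusted p = 0.00315). The family comprised 45 relations, all pairs of members and each member with the epithelial marker mean, and no other relation had an adjusted p under 0.05. Without the 2 mice farthest from the median of Erbb2, r was 0.918. It was 0.903 for the deviations of the mice from their group means, 0.923 among the 7 mice with numbered codes and 0.900 among the 6 with lettered codes. The relation was therefore as large within groups and code styles as over all mice. It was not particular to this pair: among 18764 genes, Grb7 followed Erbb2 more closely (r = 0.971) and Cpeb3 followed Erbb3 more closely (r = 0.931). For Egfr, r was 0.111 with Erbb2 (permutation p = 0.715) and 0.355 with Erbb3 (permutation p = 0.228) over all mice, and 0.595 and 0.688 for deviations from the group means. Its sign differed between the code styles: with Erbb2 it was 0.347 in numbered and -0.644 in lettered mice, and with Erbb3 0.612 in numbered and -0.364 in lettered mice.

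**Figure D2:**
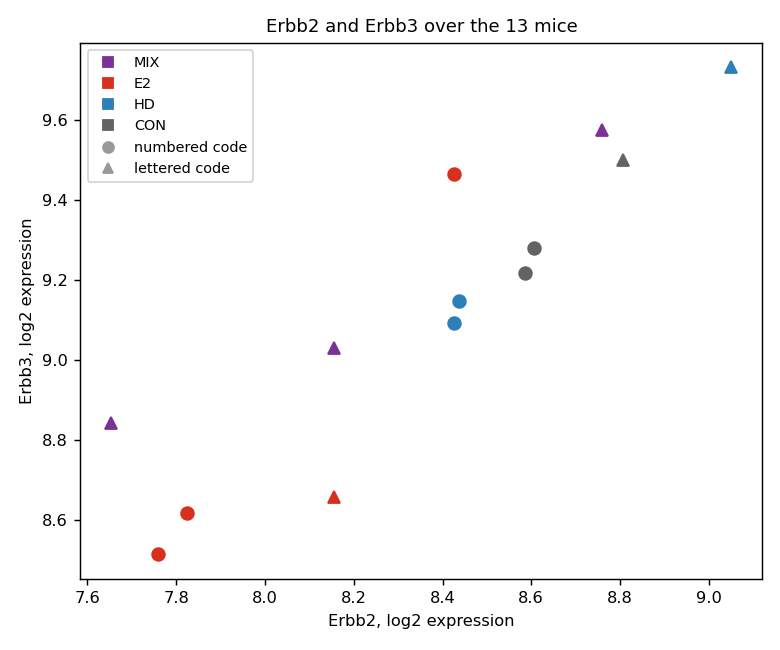
Log2 expression of Erbb3 (vertical axis) against that of Erbb2 (horizontal axis), 1 point per mouse, coloured by group and shaped by code style. The points run along 1 rising band (r = 0.907, n = 13), with MIX replicate 3 and 3 of the 4 E2 mice at its lower end and HD replicate 3 at its upper end.

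Both genes are expressed by epithelial cells, and in bulk tissue fewer cells of a type and less RNA per cell cannot be told apart. The group means of the epithelial marker mean were 10.17 in MIX, 10.03 in E2, 10.11 in HD and 10.09 in CON, and r was 0.390 with Erbb2 (permutation p = 0.187) and 0.541 with Erbb3 (permutation p = 0.0554). Without the 2 mice farthest from the median of the receptor in question, r was 0.738 with Erbb2 and 0.538 with Erbb3. Some other marker lists had higher means in pellet mice, but not all, as smooth muscle markers show (7.34 in MIX and 6.94 in E2, against 7.14 in HD and 7.26 in CON). For 6 basal and squamous markers they were 7.68 to 9.48 in MIX and 6.61 to 7.92 in E2, against 6.03 to 6.15 in HD and 5.91 to 6.34 in CON. For 5 mesothelium markers they were 8.15 to 9.19 in MIX and 7.26 to 8.79 in E2, against 7.30 to 7.47 in HD and 6.76 to 7.34 in CON. For the 8 macrophage markers they were 7.32 to 8.52 in MIX and 7.45 to 7.65 in E2, against 7.20 to 7.32 in HD and 6.45 to 6.74 in CON, and of these Cd163 was below the array median in every mouse. The part of those cells in the Erbb2 and Erbb3 values was not tested.

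Egfr, the receptor that binds all the ligands listed, was at 8.42, 8.53 and 8.49 in MIX and 7.88, 8.57, 7.60 and 8.25 in E2, against 7.76, 7.64 and 8.21 in HD and 8.05, 7.92 and 8.22 in CON. The 3 MIX mice lay close together and above every HD and CON mouse, while the E2 mice spanned the range of all groups. The plain difference of means was 0.61 between MIX and HD and 0.41 between MIX and CON. With the code style term these were 0.39 (SE 0.23, adjusted p = 0.733) and 0.20 (SE 0.23, adjusted p = 0.856), and the term itself put lettered mice 0.32 above numbered ones (unadjusted p = 0.0811). Within the lettered mice the MIX values of 8.42 to 8.53 stood against 8.25 in E2, 8.21 in HD and 8.22 in CON, 1 mouse each. E2 against CON gave 0.03 (SE 0.19) and HD against CON -0.20 (SE 0.20). The averaged pellet difference was 0.21 (SE 0.14), and 0.08 without E2 replicate 2.

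Groups that do not overlap were found for 2 members between MIX and CON, Egfr and Egf, where 17.9% of all features had none, and for the same 2 between MIX and HD (15.9%). The comparison of E2 with CON had 1, Erbb2 (5.61%), that of HD with CON 1, Hbegf (8.54%), and that of MIX with E2 1, Egf (5.65%). No member separated all 7 pellet mice from all 6 others, as 0.519% of features did. None separated all 6 high-fat mice from the 7 chow mice, as 0.0334% of features did.

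The 3 members with the widest range of group means, Erbb2, Egfr and Erbb3, were set against 18764 other genes for the likeness of their values over the 13 mice, as a description without a test. Grb7, which encodes an adaptor protein that binds ERBB2, was the gene most like Erbb2 (r = 0.971). Its values were 9.08, 8.66 and 8.03 in MIX and 8.21, 8.71, 8.26 and 8.38 in E2, against 8.72, 8.84 and 9.22 in HD and 8.78, 8.94 and 9.26 in CON. In the RefSeq gene table of mouse assembly GRCm38.p6, Grb7 is the second coding gene after Erbb2 on chromosome 11, with Mien1 between them. The kinase gene Map3k1 (r = 0.949) and Rgl3 (r = 0.948) followed. Most like Egfr were Efna1, which encodes an ephrin ligand (r = 0.898), the lysosomal protease gene Tpp1 (r = 0.874) and Golga5 (r = 0.871), and most like Erbb3 were Cpeb3 (r = 0.931), the phosphatase gene Phlpp1 (r = 0.926) and Kif13a (r = 0.919).

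The promoters of Erbb2 and Egfr are shown because these receptors had the widest ranges of group means, Erbb2 with lower means in both pellet groups and Egfr with a higher mean in MIX. The windows are those of RefSeq on GRCm38.p6, 250 bases before to 50 after the gene's start, plus strand, at chr11:98412234-98412533 for Erbb2 and chr11:16751953-16752252 for Egfr. Capitals mark the estrogen response half-site GGTCA on either strand.
Erbb2: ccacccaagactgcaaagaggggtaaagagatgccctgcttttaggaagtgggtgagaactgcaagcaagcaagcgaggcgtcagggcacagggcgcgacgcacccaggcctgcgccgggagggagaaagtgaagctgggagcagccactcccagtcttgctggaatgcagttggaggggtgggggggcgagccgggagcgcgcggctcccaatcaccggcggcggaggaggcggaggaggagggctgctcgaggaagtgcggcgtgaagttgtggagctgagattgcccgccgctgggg
Egfr: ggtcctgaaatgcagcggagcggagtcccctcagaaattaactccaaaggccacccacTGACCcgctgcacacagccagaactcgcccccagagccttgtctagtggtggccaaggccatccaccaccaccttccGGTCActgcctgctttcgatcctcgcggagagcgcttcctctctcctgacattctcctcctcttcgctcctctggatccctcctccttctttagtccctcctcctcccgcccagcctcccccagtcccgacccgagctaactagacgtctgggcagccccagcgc
The Erbb2 window held 0 and the Egfr window 2 such half-sites, which 40.5% of all 32851 windows held at least once. The full estrogen response element, GGTCA and TGACC with any 3 bases between, searched on both strands and containing the half-site, was in neither window, and 0.07% of all windows held it. Their GC content was 66.0% for Erbb2 and 62.3% for Egfr, against a median of 52.7% over all windows. A match or its absence in these letters describes the window and not the binding of a receptor.

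Among the ligands, Hbegf encodes the heparin-binding ligand. It was at 7.39, 6.67 and 8.46 in MIX and 7.32, 7.04, 7.21 and 7.10 in E2, against 7.08, 6.76 and 7.20 in HD and 7.57, 7.27 and 7.21 in CON. MIX thus held both the highest and the lowest mouse of the series, and its SD of 0.90 compared with 0.12 in E2, 0.23 in HD and 0.19 in CON. The difference between MIX and HD was 0.50 (SE 0.40, adjusted p = 0.795 in limma) and was 0.02 without MIX replicate 3 and 0.92 without MIX replicate 2. MIX replicate 3 had the highest marker means for granulocytes (9.68), macrophages (8.52), basal and squamous epithelium (9.48), mesothelium (9.19) and lymphocytes (6.02). The part of those cells in the Hbegf values was not tested. The averaged pellet difference was 0.16 (SE 0.26), and -0.08 without MIX replicate 3. The 3 HD mice lay just below the 3 CON mice, with 7.20 and 7.21 as the nearest values, and that difference was -0.34 (SE 0.35).

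Tgfa encodes transforming growth factor alpha, a ligand of Egfr that epithelia make. Its values were 7.37, 7.19 and 7.37 in MIX and 6.997, 7.01, 7.44 and 7.27 in E2, against 7.13, 7.07 and 7.28 in HD and 7.36, 7.27 and 7.53 in CON. The CON mean of 7.39 ± 0.13 was above those of MIX (7.31 ± 0.10), E2 (7.18 ± 0.21) and HD (7.16 ± 0.11), and the ranges overlapped. HD minus CON was -0.23 (SE 0.11, unadjusted p = 0.0676) and E2 minus CON -0.19 (SE 0.11, unadjusted p = 0.0945), both with an adjusted p of 1 in limma. The averaged pellet difference was -0.08 (SE 0.08), with a 95% confidence interval of -0.26 to 0.10.

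Btc encodes betacellulin, which binds Egfr and Erbb4. It ranged from 6.47 to 6.88 in MIX and 6.37 to 6.86 in E2, against 6.58 to 6.61 in HD and 6.61 to 7.02 in CON. The 3 HD mice were nearly equal and lay inside the range of both pellet groups. The averaged pellet difference was -0.12 (SE 0.11, 95% confidence interval -0.36 to 0.12), and -0.03 without CON replicate 3, the highest mouse. The averaged diet difference was -0.10 (SE 0.11).

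Egf, which gives the family its name, and Ereg, which encodes epiregulin, were near the array medians in every group, where differences can be compressed. Egf was at 4.76, 4.74 and 4.73 in MIX and 4.79, 4.78, 4.82 and 4.80 in E2, against 4.80, 4.86 and 4.94 in HD and 4.80, 4.92 and 4.80 in CON. Although the 3 MIX mice lay below the other 10, a separation that 1.98% of all features showed in either direction, the averaged pellet difference was only -0.09 (SE 0.04, adjusted p = 0.536 in limma). All 7 pellet mice were below the mean of their counterparts, and the exact permutation test of the plain difference of -0.08 gave an unadjusted p = 0.0143. With each array centred on its median, the averaged limma difference for Egf was -0.03, and it was -0.055 without HD replicate 3. On chow alone, E2 minus CON was -0.04 (SE 0.06) for Egf, and 0.004 without CON replicate 2, the highest CON mouse. Ereg had 2 features. The one with the higher mean ran from 4.54 to 4.83 in MIX and 4.64 to 5.01 in E2, against 4.68 to 4.83 in HD and 4.68 to 4.95 in CON, with an averaged pellet difference of 0.04 (SE 0.08). By its number this feature sits among features of minus-strand genes (29 of 29 neighbours by number), and the other among features of plus-strand genes (25 of 25). The other feature was above the array median in only 2 of 13 mice and gave -0.01 (SE 0.10), so no level of Ereg was read from either. On chromosome 5, Epgn, Ereg, Areg and Btc follow each other as coding neighbours.

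Errfi1 encodes an inhibitor that binds the kinase domain of EGFR and is itself induced by receptor signalling. Its values were 8.37, 8.20 and 8.23 in MIX and 7.79, 8.39, 8.19 and 8.36 in E2, against 8.06, 8.27 and 8.54 in HD and 8.35, 7.99 and 8.15 in CON. The groups overlapped throughout, and the averaged pellet difference was -0.06 (SE 0.12, 95% confidence interval -0.32 to 0.20). The averaged diet difference was 0.03 (SE 0.12, -0.23 to 0.30).

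**Figure D3:**
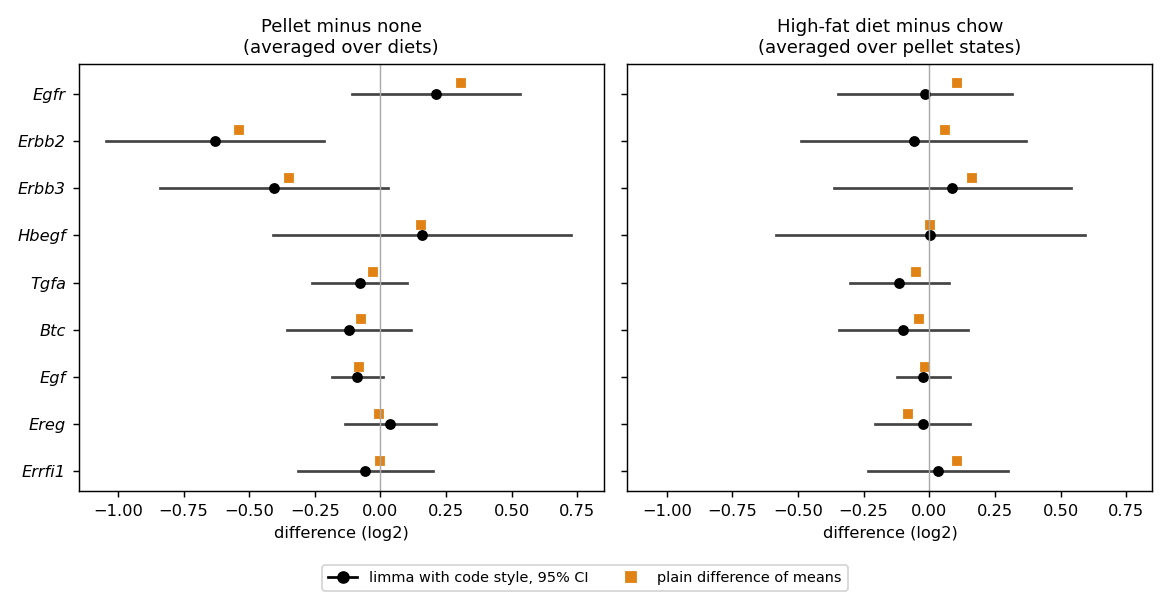
Differences in log2 expression for the 9 genes, pellet minus none averaged over diets (left) and high-fat diet minus chow averaged over pellet states (right). Black points and lines are limma differences with the code style term and their 95% confidence intervals, and orange squares are plain differences of group means. The interval of Erbb2 for the pellet, -1.05 to -0.22, is the only one of the 18 that does not reach 0, before any adjustment over features.

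The high-fat diet gave no member a difference that passed. Averaged over pellet states the differences ran from -0.11 for Tgfa (SE 0.08) to 0.09 for Erbb3 (SE 0.20), each with an adjusted p of 1 in limma. The exact permutation test within pellet state gave its smallest p, 0.314, for Ereg. The intervals were narrowest for Egf (-0.12 to 0.08) and widest for Hbegf (-0.58 to 0.59). The interaction, MIX minus HD less E2 minus CON, ran from -0.19 for Errfi1 (SE 0.24) to 0.68 for Hbegf (SE 0.53).

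Of the remaining family, 6 of 6 genes (Epgn, Nrg1, Nrg2, Nrg3, Nrg4 and Erbb4) had a feature, and 0 passed in either direction in any comparison. Erbb4, the receptor for neuregulins and for some EGF-type ligands, was at 4.64, 4.35 and 4.37 in MIX and 4.99, 6.99, 5.03 and 4.90 in E2, against 5.57, 5.33 and 5.68 in HD and 5.41, 6.22 and 6.53 in CON. The 3 MIX values lay below those of all other mice, a separation found in 1.98% of features, and near the array medians, where differences can be compressed. MIX minus CON was -1.62 (SE 0.58, adjusted p = 0.482 in limma), and the averaged pellet difference -0.83 (SE 0.37, adjusted p = 0.497). Without CON replicate 3 these were -1.06 and -0.57. E2 replicate 2 had the highest value of the 4 E2 mice for Egfr, Erbb2, Erbb3, Erbb4 and Errfi1. Its epithelial marker mean was 10.09, against 10.1, 9.95 and 9.97 in E2 replicates 1, 3 and 4, and the part of epithelial content in these values was not tested. Nrg4, a neuregulin that binds Erbb4, gave an averaged pellet difference of -0.37 (SE 0.19), which 1 mouse carried: CON replicate 3 was at 6.47, against 4.95 to 5.60 in the other 12, and without it the difference was -0.08.

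Genes that release the ligands were also measured. Of 7 listed, 6 had a feature and 0 passed, and their median averaged pellet difference was 0.24, against -0.01 over all genes. Adam17 encodes the main protease that sheds Tgfa, Areg and Hbegf precursors. It was at 8.44, 8.19 and 8.88 in MIX and 8.30, 8.19, 8.21 and 8.14 in E2, against 8.21, 8.19 and 8.12 in HD and 8.01, 7.98 and 8.02 in CON. All mice of the 3 treated groups lay above all 3 CON mice, and 0.909% of features separated CON from all other mice in either direction. MIX minus CON was 0.54 (SE 0.16, adjusted p = 0.419 in limma), and 0.35 without MIX replicate 3. The related protease gene Adam9 was at 10.51, 9.47 and 10.20 in MIX and 9.74, 9.37, 9.22 and 8.96 in E2, against 8.71, 9.05 and 9.51 in HD and 8.88, 9.10 and 8.30 in CON, with MIX minus CON at 1.43 (SE 0.36, adjusted p = 0.347). The macrophage marker means given above were higher in MIX, E2 and HD than in CON as well, and their part in these values was not tested.

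Downstream of the receptors, 0 genes passed in any comparison among the 14 measured of 20 adaptors and MAP kinase genes, the 11 of 13 PI3-kinase and STAT genes, the 14 of 14 feedback inhibitors and the 11 of 12 early ERK targets. Median averaged pellet differences were -0.08, -0.05, -0.08 and 0.07 for these lists. Gab2, an adaptor below several receptors that immune cells also express, had an averaged pellet difference of 0.71 (SE 0.18, adjusted p = 0.281 in limma). The RAF kinase gene Araf had -0.25 (SE 0.08, adjusted p = 0.359; -0.17 without the code style term) and Pik3r1, the regulatory subunit of PI3-kinase, -0.40 (SE 0.11, adjusted p = 0.328). Among the inhibitors of the MAP kinase route, Spred2 had -0.51 (SE 0.13, adjusted p = 0.295) and Spry1 -0.35 (SE 0.08, adjusted p = 0.248). By diet, Pik3r1 was at -0.57 (SE 0.15) on chow (E2 minus CON) and -0.22 (SE 0.18) on the high-fat diet (MIX minus HD). In the same order Spred2 was at -0.68 (SE 0.17) and -0.33 (SE 0.21), and Spry1 at -0.54 (SE 0.10) and -0.15 (SE 0.13). Without the code style term the values on the high-fat diet were -0.02 for Pik3r1, -0.23 for Spred2 and -0.20 for Spry1. HD minus CON was itself -0.47 (SE 0.18) for Spred2 and -0.35 (SE 0.11) for Spry1. For both inhibitors all CON mice lay above all other mice, a separation that 0.909% of features showed in either direction. Among the genes that ERK signalling induces, Phlda1 had 0.55 (SE 0.18, adjusted p = 0.393), and 0.38 without MIX replicate 3, which at 8.17 lay above the 6.57 to 7.56 of the other 12 mice. Jun had -0.38 (SE 0.15, adjusted p = 0.448), and -0.21 without the code style term. Stat5b, a signal transducer below cytokine and growth factor receptors, had -0.22 (SE 0.11), and -0.12 without HD replicate 3.

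For the averaged diet difference, the guanine nucleotide exchange factor genes Sos1 and Sos2, which activate RAS, had -0.19 (SE 0.07) and -0.18 (SE 0.08), both with an adjusted p of 1 in limma. Sos2 was at -0.07 without the code style term and -0.12 without CON replicate 3. With that term Sos2 had -0.37 (SE 0.10) without a pellet (HD minus CON) and 0.007 (SE 0.11) with one (MIX minus E2). Its average thus does not describe both, although the interaction of 0.38 (SE 0.15) did not pass. Pik3cb, a catalytic subunit of PI3-kinase, had 0.21 (SE 0.14) and Stat3 0.13 (SE 0.11), and without E2 replicate 4 these were 0.07 and -0.02. Socs5, listed among the inhibitors, had 0.10 (SE 0.05), and 0.03 without the code style term. The transcription factor gene Myc had -0.41 (SE 0.19), with -0.23 without the code style term and -0.21 without E2 replicate 4. With the code style term the diet difference of Myc was -0.38 (SE 0.28) with the pellet (MIX minus E2) and -0.45 (SE 0.25) without it (HD minus CON). The plain differences were -0.02 and -0.45, so the average of -0.23 without that term does not describe both. None of these passed.

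**Figure D4:**
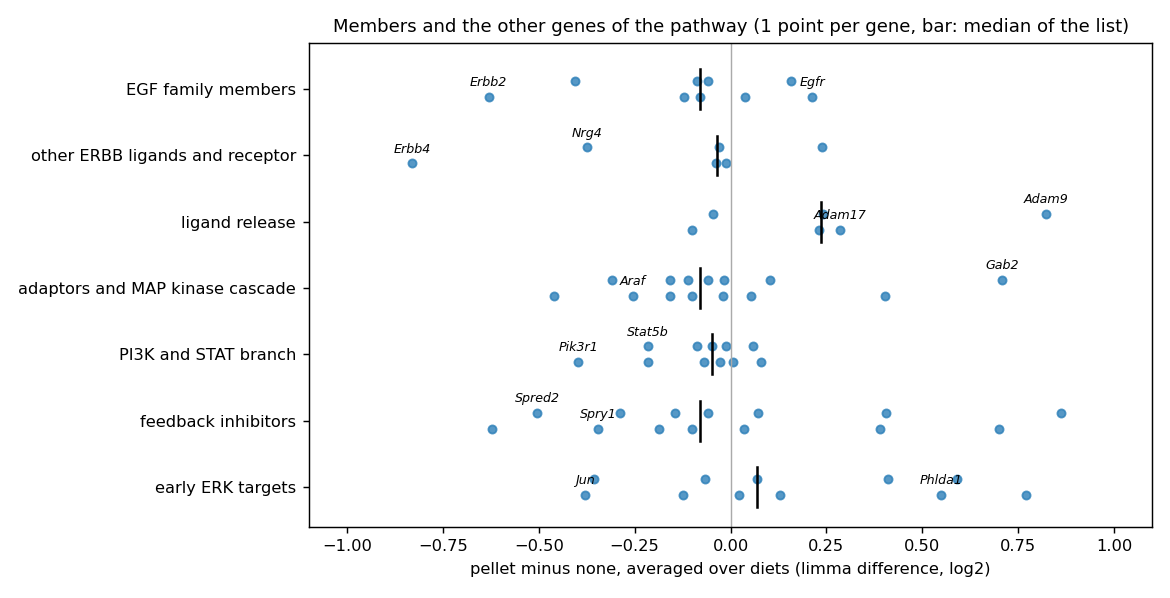
Averaged pellet difference in log2 expression (horizontal axis) for each measured gene of the EGF family members and of 6 further pathway lists (rows), 1 point per gene with the list median as a bar. Medians lie between -0.08 and 0.24, the points of most lists fall on both sides of 0, and none passed the threshold.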

How the data were processed

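Endometrial RNA of 13 mice was labelled from 250 ng of total RNA and hybridised to Affymetrix arrays, 1 per mouse, as the labels' protocols state. Each deposited value is a log2 expression level of 1 array feature. RMA is the method named in the submitters' processing notes, and neither its version nor a filter was given. RMA treats all arrays together and compresses differences of dim features. An array has no read depth, so the number of mice limits precision, and whether other factors such as cage were shared is not stated.

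Features were named through the array annotation, with 827 symbols updated through Entrez identifiers: 30604 of 65929 features carried 1 symbol, 2146 several, and 33179 were unnamed here. All features entered 1 fit of 4 group coefficients and the code style with lmFit and eBayes (limma 3.58.1, R 4.3.3), which left 8 residual degrees of freedom. Tests were two-sided with Benjamini-Hochberg adjustment over all features and a threshold of 0.05. The fit was tested on simulated data. Exact permutation tests used plain differences of group means, and relations used 100000 resamples. Of the pathway lists, the genes given have the smallest unadjusted p for the averaged pellet or diet difference, since none passed. Alternatives were no code style term, a replicate block, a filter on dim features, only the groups compared, a trended robust prior, array weights, arrays centred on their medians, and leaving out each mouse. For the pathway genes, the fits without a mouse or the code style term were chosen after seeing the data, as were the shares of features that separate MIX or CON from all other mice.

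The members and lists were chosen with earlier results of these data known.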

Additional observations from a re-analysis of the deposited data

Results flagged for a closer look

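Erbb3 in E2 held a mouse far from the others. E2 replicate 2 was at 9.46, against 8.51, 8.62 and 8.66 in the other 3, and the gap took up 0.85 of the group's range, above the critical value for 4 samples. About 1 in 20 groups would be marked so by chance, and 9 genes were looked at. Without that mouse the averaged pellet difference of Erbb3 was -0.56 (adjusted p = 0.336 in limma).

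The diet difference of Tgfa had opposite signs in plain group means, and its sign with the pellet depended on the processing. All 3 HD mice lay below the CON mean, while all 3 MIX mice lay above the E2 mean, and the plain interaction was 0.358. With the code style term MIX minus E2 was 0.0003 (SE 0.13), against -0.23 (SE 0.11) for HD minus CON, so no opposite sign was read from that fit. Over the alternatives MIX minus E2 ran from -0.04 to 0.22, and HD minus CON from -0.26 to -0.205. In limma the interaction was 0.23 (SE 0.17, unadjusted p = 0.204, adjusted p = 1), so the difference between the diet effects did not pass.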

How the results depend on the processing

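The number of members called was 0 in every comparison under all alternatives run, and the smallest adjusted p was 0.075, for Erbb2 in the averaged pellet comparison without MIX replicate 1. The averaged pellet difference of Erbb2 stayed between -0.77 and -0.42, and that of Erbb3 between -0.56 and -0.16. Of the 72 member differences, 24 exceeded their own SE, and 2 of the 471 alternative values of these had the opposite sign: the Egfr interaction was -0.0197 with the replicate block, and Erbb3 between MIX and CON was 0.0162 with array weights. The Erbb2 interaction of -0.06 was -0.74 with the replicate block. The causes were not tested. Among the 48 differences within their SE, 142 of 958 alternative values had the opposite sign, so no direction is read from them. Both totals, 471 and 958, include values that could not move. The trended robust prior and the filter on dim features leave a member's difference as it is, as does leaving out a MIX mouse for E2 against CON. The shares of opposite signs are therefore lower than among the alternatives that can move a difference.

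The background of all features moved more. For MIX against CON 2 features passed, with 15 without the code style term, 11 without dim features, 13 with array weights, 5 with centred arrays, 0 with only the groups compared and 0 with the replicate block (0 to 89 leaving out a mouse). For MIX against HD 3 passed, with 12, 6 and 7 under those first settings, in that order, 0 with only the groups compared and 0 with the replicate block (0 to 80). The averaged pellet comparison had 11, with 7 under the trended robust prior and 0 with the replicate block (0 to 224). MIX against E2 had 0, with 1 without the code style term (0 to 24), the averaged diet comparison 0, with 1 with array weights (0 to 3), and the interaction 0 (0 to 2). The exact pellet test had 2 members at an unadjusted p under 0.05, and 1 to 3 leaving out a mouse. Mice that share a replicate number deviated from their group means with correlations of -0.26 to 0.31 over 18 pairs. Over 45 pairs with different numbers these ran from -0.41 to 0.49, so the numbers were not taken to pair mice. A fit of only the groups compared was not run for the interaction and the averages, which need all 4 groups.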
